A study of Danio rerio with 6 samples.

Results

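The SMAD mediators are the proteins that carry signals of the TGF-beta and BMP growth factors from receptors at the cell surface to the nucleus. Their 6 assays were taken from a real-time PCR panel of 326 gene assays by plate symbol: SMAD2, SMAD3a and SMAD3b of the TGF-beta branch, SMAD1 and SMAD5 of the BMP branch, and SMAD4, which both branches share. Of the 326 genes, 319 were kept because every plate of 1 or both groups gave a threshold cycle (Ct) under 35, and all 6 SMAD genes were among them. The panel was run, with SYBR Green detection, on total RNA of whole zebrafish embryos collected 24 hours post fertilization. NOD1 embryos had received the plasmid ptGFP1-NOD1 by microinjection, and control embryos the parent plasmid ptGFP1, so both groups carried the ptGFP1 backbone. Each group had 3 biological replicates and 1 plate per replicate, and RNA came from pools of 150 to 200 embryos on average. The sources used here do not give the strain, the promoter that drives the insert or the cells that took up the plasmid.

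TGF-beta, activin and Nodal ligands act through receptor kinases that phosphorylate SMAD2 and SMAD3, whereas BMP ligands act through related receptors that phosphorylate SMAD1 and SMAD5. The phosphorylated SMADs bind SMAD4, and the complexes enter the nucleus and regulate target genes. In the zebrafish embryo, Nodal signals through Smad2 and Smad3 induce mesoderm and endoderm, and BMP signals through Smad1 and Smad5 pattern the ventral side. Control of SMAD activity is largely by phosphorylation, which a transcript assay does not measure.

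By GenBank accession, 5 of the 6 assays matched a current gene in a RefSeq table of assembly GRCz12tu: smad1, smad2, smad3a, smad3b and smad5. The SMAD4 assay matched smad4a by synonym, and the table also holds smad4b, so which of these copies the assay reads is not settled. smad3a and smad3b are separate zebrafish genes that correspond to the single mammalian SMAD3.

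A Ct counts the cycles until fluorescence passes a set threshold, and it is lower where there is more template. Levels below are relative levels, the mean Ct of the reference genes ACTB, GAPDH and Tuba1 on a plate minus the Ct of the gene, so that a higher (less negative) value means more transcript and 1 unit is about 2-fold. The sources used here do not give amplification efficiency, so relative levels were compared between groups for 1 assay and not as amounts between assays. In whole-embryo RNA, fewer cells that make a transcript and less transcript per cell cannot be told apart.

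The injected gene separated the groups, with relative levels of -3.20, -1.49 and -2.26 for the NOD1 assay in the NOD1 plates against -10.81, -10.94 and -10.97 in the control plates. Since NOD1 embryos received a NOD1 plasmid, this is a check on the injection and does not show a change of the embryo's own gene. Between 314 and 321 of the 326 gene wells of a plate had a Ct under 35, and the genomic DNA control wells of the 6 plates gave 0 Ct values. The reference genes were 0.655 cycles later in NOD1 plates (two-sided exact permutation p = 0.1, the floor for 3 plates against 3). Wells that control for reverse transcription averaged a Ct of 21.5 ± 0.136 in NOD1 plates and 21.2 ± 0.176 in control plates (SD, n = 3 each, exact permutation p = 0.2). The plates were run on 3 days, and no day held both groups, so run day and group cannot be told apart for any difference below. All NOD1 plates were run on day 3, control replicate 1 on day 1 and control replicates 2 and 3 on day 2. The SDs of the control plates therefore include spread between days, and those of the NOD1 plates do not.

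The TGF-beta SMADs were lower in NOD1 embryos and the BMP SMADs and SMAD4 did not pass the test. SMAD3b had the largest difference, at 36.5% of its control level, while SMAD2 and SMAD3a were at 64.7% and 66.6%. SMAD4 was at 84.5%, SMAD1 at 101% and SMAD5 at 108% of the control level. By limma with Benjamini-Hochberg adjustment over the 319 genes, 3 of the 6 SMAD genes were lower and 0 were higher at an adjusted p under 0.05. Over the kept genes, 15.4% were called lower and 37% higher, 52.4% in either direction. The plates of the groups did not overlap for 3 of the 6, each with NOD1 lower, beside 63.9% of the kept genes in either direction and 21.6% with NOD1 lower. The median difference of the 6 genes was -0.41 on the log2 scale, beside 0.32 for the 319 genes. The 319 include later genes, which had higher differences. In the 2 bands of 80 genes by mean Ct that hold the SMAD genes, described below, the medians were -0.11 and 0.14.

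**Figure D1:**
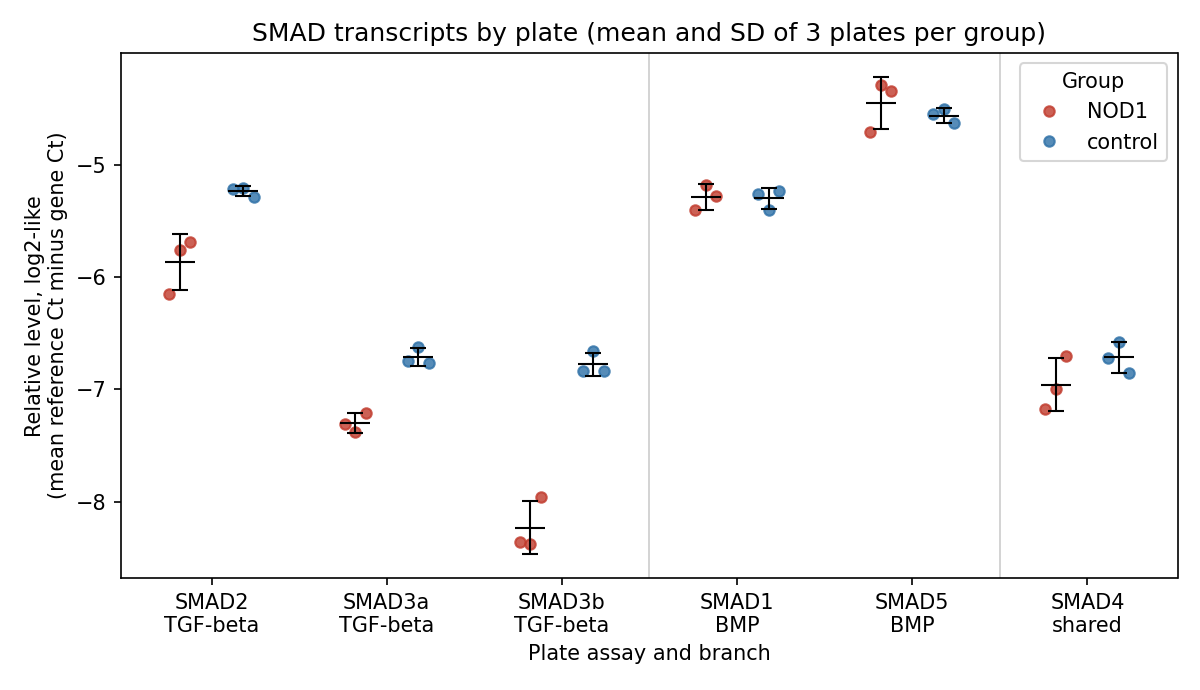
Relative level (log2-like, vertical axis) of the 6 SMAD assays on each plate, with NOD1 plates in red on the left and control plates in blue on the right of each pair, and bars for the mean and SD of 3 plates. The NOD1 and control plates lie apart for SMAD2, SMAD3a and SMAD3b and overlap for SMAD1, SMAD5 and SMAD4.

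SMAD3b, a DNA-binding mediator of TGF-beta and Nodal signals, had relative levels of -8.35, -8.38 and -7.95 in the NOD1 plates, against -6.83, -6.66 and -6.84 in the control plates. The groups did not overlap, and the highest NOD1 plate, replicate 3, lay 1 unit or more below each control plate. Set against the control mean, the NOD1 plates held 33.5%, 32.9% and 44.2%, and the control plates 96.1%, 109% and 95.8%. SMAD3b fell by 1.45 ± 0.16 on the log2 scale (SE, n = 3 per group, 95% interval -1.85 to -1.06, limma adjusted p = 0.00150), which ranked 5 from the lowest among the 319 differences. Its pooled SD between plates was 0.18, far less than the difference. The authors' deposited table gives the same ratio, 0.365, with a p-value of 6.38e-04.

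SMAD3a, the paralog of SMAD3b, had relative levels of -7.30, -7.38 and -7.21 in the NOD1 plates, against -6.75, -6.62 and -6.77 in the control plates. The groups did not overlap and both were tight, with SDs of 0.088 in NOD1 and 0.079 in control plates. SMAD3a fell by 0.59 ± 0.11 on the log2 scale (SE, n = 3 per group, 95% interval -0.87 to -0.30, limma adjusted p = 0.00837). The difference, a fold of 0.666, was several times the pooled SD of 0.084. With 18S rRNA added to the reference genes it was -0.099 and did not pass (adjusted p = 0.429), and with GAPDH alone it was -0.37 (adjusted p = 0.0483).

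SMAD2, the other receptor-regulated SMAD of the TGF-beta branch, had relative levels of -6.15, -5.76 and -5.68 in the NOD1 plates, against -5.21, -5.21 and -5.29 in the control plates. The groups did not overlap, the control plates lay close together, and NOD1 replicate 1 was the lowest plate. SMAD2 fell by 0.63 ± 0.16 on the log2 scale (SE, n = 3 per group, 95% interval -1.02 to -0.24, limma adjusted p = 0.0191). The call was lost when any 1 control plate was left out (adjusted p = 0.0617, 0.0563 and 0.0529 without control replicates 1, 2 and 3), with differences of -0.62, -0.61 and -0.65. With GAPDH as the only reference gene the difference was -0.42 (adjusted p = 0.107).

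SMAD1, a BMP mediator, had relative levels of -5.41, -5.18 and -5.28 in the NOD1 plates, against -5.26, -5.41 and -5.23 in the control plates. The groups overlapped, and the difference was 0.011 ± 0.12 on the log2 scale (SE, n = 3 per group, limma adjusted p = 0.950). The 95% interval of -0.29 to 0.31 corresponds to folds from 0.818 to 1.24. SMAD5, the BMP mediator of dorsoventral patterning in the zebrafish embryo, had relative levels of -4.71, -4.29 and -4.34 in the NOD1 plates, against -4.55, -4.51 and -4.63 in the control plates. NOD1 replicates 2 and 3 lay above the control plates and NOD1 replicate 1 below them. The difference was 0.11 ± 0.15 (limma adjusted p = 0.538), with an interval of -0.26 to 0.49, or folds from 0.835 to 1.40. The SMAD1 and SMAD5 intervals leave out a change as large as the fitted change of SMAD3b, and they do not show that the BMP SMADs were unaltered.

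SMAD4, the common partner, had relative levels of -7.17, -7.00 and -6.71 in the NOD1 plates, against -6.72, -6.57 and -6.85 in the control plates. NOD1 replicates 1 and 2 lay below the control plates, and NOD1 replicate 3 lay among them. The difference was -0.24 ± 0.16 on the log2 scale (SE, n = 3 per group, 95% interval -0.65 to 0.16, limma adjusted p = 0.257), or folds from 0.638 to 1.12. For all 6 SMAD genes the SD between plates was larger in NOD1 than in control plates, as it was for 201 of the 319 kept genes (63.0%).

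Differences between 2 assays on 1 plate do not depend on the reference genes, because the reference mean cancels. In control plates the SMAD3a, SMAD3b and SMAD4 assays ran within a fraction of a cycle of each other, and they moved apart in NOD1 plates. SMAD3b had a mean Ct of 26.5 ± 0.312 in NOD1 plates and 24.4 ± 0.065 in control plates, SMAD3a had 25.6 ± 0.184 and 24.3 ± 0.069, and SMAD4 had 25.2 ± 0.275 and 24.3 ± 0.0038 (SD, n = 3 each). SMAD3b minus SMAD3a was -1.05, -0.998 and -0.75 in NOD1 plates, against -0.084, -0.035 and -0.070 in control plates. The groups lay far apart, with a difference of -0.87 ± 0.094 (SE from the plate SDs; two-sided exact permutation p = 0.1, the floor of the design). If 1 cycle is 2-fold for both assays, the ratio of SMAD3b to SMAD3a in NOD1 plates was 0.548 times that in control plates. This scale is free of the reference genes but not of unequal efficiency, which was not measured.

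The branch contrast ran the same way. The mean of the TGF-beta SMADs minus the mean of the BMP SMADs was -2.21, -2.44 and -2.14 in NOD1 plates, against -1.36, -1.20 and -1.36 in control plates. The groups did not overlap, and the means differed by -0.95 on the log2 scale, a ratio of 0.517 if 1 cycle is 2-fold for each assay. SMAD4 minus the mean of the other SMADs was -0.79, -0.80 and -0.61 in NOD1 plates, against -0.997, -0.90 and -1.10 in control plates, a difference of 0.27. In difference from control, SMAD4 (-0.24) lay between the means of the BMP SMADs (0.062) and the TGF-beta SMADs (-0.89). Within plates, SMAD4 minus SMAD1 overlapped between the groups (two-sided exact permutation p = 0.3). SMAD4 minus SMAD5, and SMAD2, SMAD3a and SMAD3b minus SMAD4, did not overlap, beside 63.9% of all 50721 pairs of kept genes. No such share was computed for contrasts that use means of several genes. The order was not tested. These contrasts are descriptions, since the grouping of the genes was made with earlier results known.

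**Figure D2:**
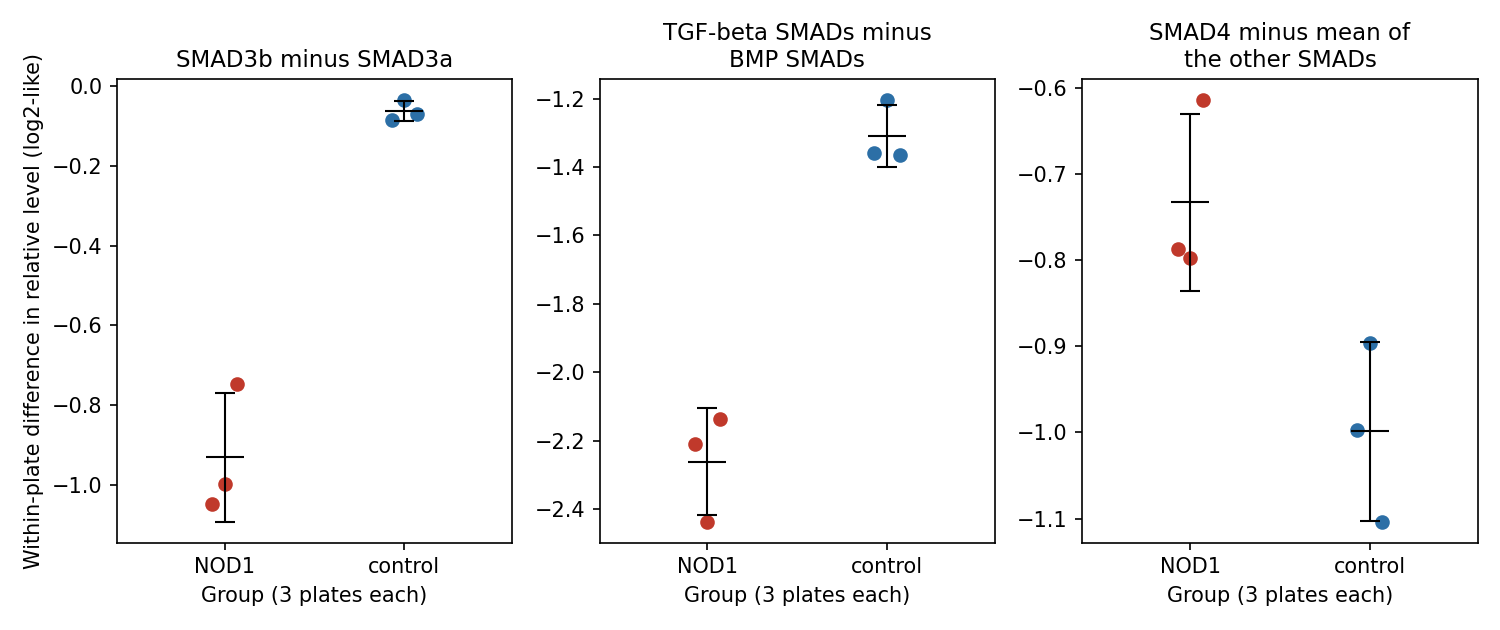
Within-plate differences in relative level (log2-like, vertical axes, each panel with its own range) for SMAD3b minus SMAD3a, the TGF-beta SMADs minus the BMP SMADs, and SMAD4 minus the mean of the other SMADs, with 3 NOD1 plates in red left of 3 control plates in blue and bars for the mean and SD. SMAD3b minus SMAD3a averaged -0.93 in NOD1 and -0.063 in control plates, and no panel shows overlap of the groups. Of all pairs of kept genes, 63.9% did not overlap either.

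Over the 15 pairs of SMAD genes, 12 had within-plate differences that did not overlap between the groups, beside 63.9% of all 50721 pairs of kept genes. Each of the 12 had an exact permutation p of 0.1, so no pair could pass a threshold of 0.05 in this design. The pairs share genes and are not independent. The 3 pairs with overlap were SMAD4 with SMAD1, SMAD1 with SMAD5, and SMAD2 with SMAD3a. SMAD1 minus SMAD5 differed by -0.10 ± 0.12 (exact permutation p = 0.5) and SMAD2 minus SMAD3a by -0.042 ± 0.15 (exact permutation p = 0.9). Among pairs across the branches, SMAD2 minus SMAD5 was the most even, at -1.44, -1.47 and -1.34 in NOD1 plates against -0.66, -0.70 and -0.66 in control plates, a difference of -0.74 ± 0.041.

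The direction of the BMP SMADs and SMAD4 depended on the scaling, and that of the TGF-beta SMADs kept its sign under the 11 scalings tried. On raw Ct, all 6 SMAD assays were later in NOD1 plates with no overlap, by 0.541 cycles for SMAD5, 0.644 for SMAD1, 0.898 for SMAD4, 1.24 for SMAD3a, 1.28 for SMAD2 and 2.11 for SMAD3b. Of the kept genes, 46.4% were later without overlap on raw Ct. With the global mean, the global median or raw Ct, all 6 SMAD genes were called lower, beside 43.9%, 35.4% and 42% of the kept genes. With 18S rRNA, which was 2.60 cycles later in NOD1 plates, added to the reference genes, SMAD1 and SMAD5 were called higher by 0.50 and 0.60 (limma adjusted p = 0.00927 and 0.00739), as were 61.1% of the kept genes, and SMAD3b was the 1 member called lower, at -0.97 (adjusted p = 0.00289), beside 5.64% of the kept genes.

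The median difference of the kept genes itself moved from -0.34 on raw Ct to 0.80 with 18S rRNA added. Below that median, SMAD3b stood at -1.77, SMAD2 at -0.94, SMAD3a at -0.90, SMAD4 at -0.56, SMAD1 at -0.31 and SMAD5 at -0.20 under each scaling that moves all genes of a plate alike. Quantile and cyclic loess scaling, which move genes by their level, placed SMAD3b at -1.56 and -1.46 from the median, SMAD2 at -0.50 with each, SMAD3a at -0.60 and -0.52, and SMAD4 at -0.18 and -0.16. Under these scalings SMAD1 lay above the median by 0.11 and 0.14, and SMAD5 by 0.20 and 0.23. SMAD2, SMAD3a and SMAD3b were called lower under both, beside 24.5% of the kept genes with quantile and 22.6% with cyclic loess scaling, and SMAD1, SMAD4 and SMAD5 were not called.

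**Figure D3:**
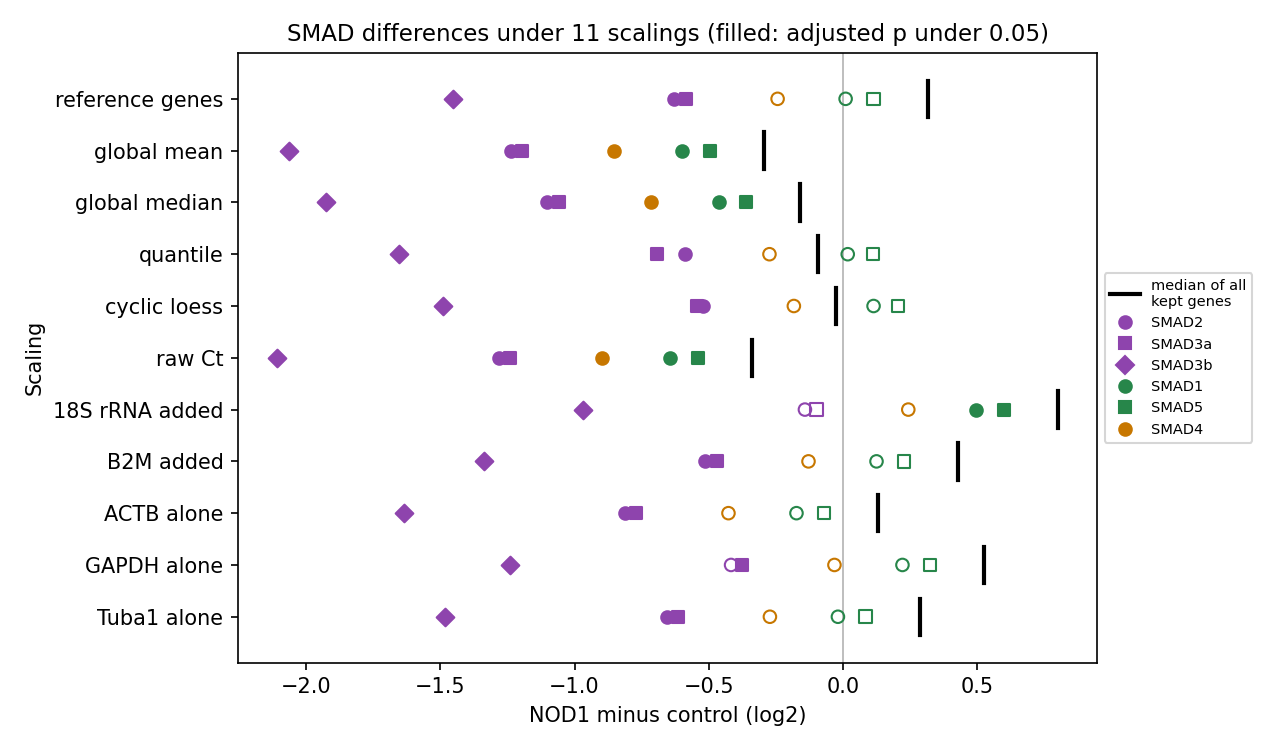
Difference of NOD1 minus control (log2, horizontal axis) for each SMAD gene under 11 scalings (rows), with TGF-beta SMADs in purple, BMP SMADs in green, SMAD4 in orange, filled symbols at an adjusted p under 0.05, and a black bar at the median of the kept genes. SMAD3b is lowest in each row, SMAD1 and SMAD5 lie highest of the members, and the whole row shifts with the scaling from raw Ct (median -0.34) to 18S rRNA added (median 0.80).

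All 6 SMAD assays were well clear of the ceiling of 35 cycles, with mean Cts from 22.7 to 26.5 in NOD1 plates and from 22.2 to 24.4 in control plates. Later genes of the plate had higher differences. The 80 kept genes with the lowest mean Ct, among them SMAD1, SMAD2 and SMAD5, had a median difference of -0.11, with 9 called higher and 15 lower. The next 80 genes, among them SMAD3a, SMAD3b and SMAD4, had a median of 0.14, with 21 called higher and 19 lower, and the 80 latest had a median of 1.42. The differences of SMAD2, SMAD3a, SMAD3b and SMAD4 lay below the median of the genes in their own band, and those of SMAD1 and SMAD5 above it.

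The plate held 0 of the listed TGF-beta and BMP ligands and antagonists, 0 of the listed receptors and 0 of the listed inhibitory SMADs and regulators, so the SMADs were the core of these pathways on it. Of 8 listed SMAD partners and kinases of the TGF-beta-activated kinase branch, 2 rose, 0 fell and 6 did not pass, beside 37% of the kept genes called higher and 15.4% called lower, and the median difference was 0.021. The assay MAP3K7IP1, an older human symbol for the TAK1 activator TAB1 and not matched to a current zebrafish gene here, was left out of this count by the match on symbols. It was called higher by 0.76 ± 0.25 (limma adjusted p = 0.0499). The list also left out other JNK-type and p38-type kinases and their activators on the plate. Of these, MAP2K7, MAPK9 and MAPK10 were called lower, at -0.82, -0.84 and -1.31 (limma adjusted p = 0.00451, 0.00846 and 0.00485). MAP2K4, MAP2K6, MAPK11 and MAPK12 did not pass. JUNB, an AP-1 subunit that can bind SMAD complexes, rose by 1.41 ± 0.19 on the log2 scale (SE, limma adjusted p = 0.00267). MAPK14, a p38-type stress kinase that was not matched to a current gene, rose by 1.27 ± 0.14 (adjusted p = 0.00154) with mean Cts of 29.7 in NOD1 and 30.3 in control plates. It was among the 80 latest kept genes, of which 50 were called higher and whose median difference was 1.42. TAK1, the kinase that relays TGF-beta signals outside the SMAD route, differed by -0.049 ± 0.14 (adjusted p = 0.791), and the kinase MAPK3 by -0.26 (adjusted p = 0.156). The DNA-binding partners JUN and SP1 differed by -0.24 and 0.17 (adjusted p = 0.232 and 0.359). Neither of the 2 listed target genes on the plate passed, with MYC at -0.13 (adjusted p = 0.483) and GATA3 at 0.32 (adjusted p = 0.138). This list does not hold every SMAD target, so it does not show that SMAD targets on the plate were unaltered.

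The STAT and interferon regulatory factor families of transcription factors are shown beside the SMADs as a description. Among 9 STAT assays, whose products relay cytokine signals, 2 rose and 5 fell, with a median of -0.85, while 0 of the 6 SMAD genes rose and 3 fell. The falls of STAT6 and STAT7 may count 1 gene, since STAT6 matched stat6 by accession and STAT7 matched it by synonym only. The 2 STAT rises, of 2.12 and 1.59, were larger in size than each of the 5 falls, of which the largest was -1.11. STAT3, 1 of the falls, was lower by 0.98 ± 0.11 (limma adjusted p = 0.00150), a size between those of SMAD2 and SMAD3b. Of 11 kept interferon regulatory factors, 5 were higher and 0 lower, with a median of 0.70. These counts stand beside 37% higher and 15.4% lower over the kept genes. Whether the families differ from the SMADs was not tested.

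**Figure D4:**
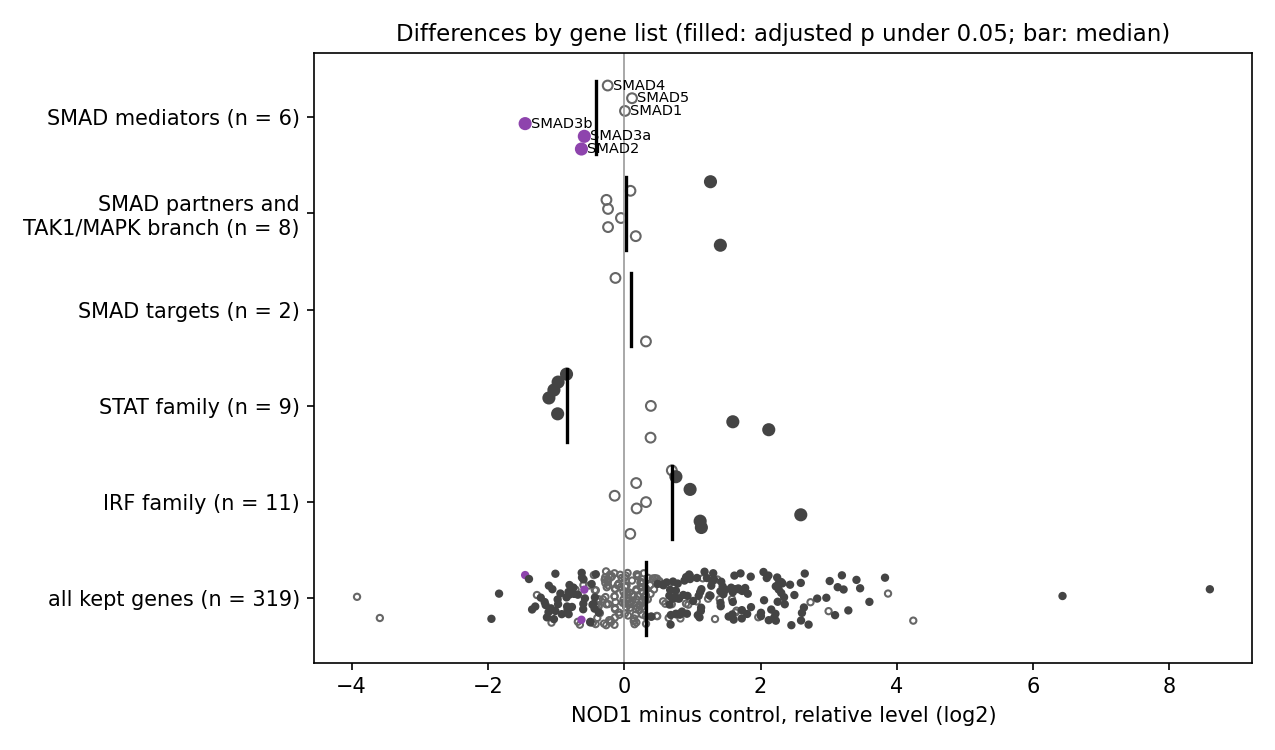
Difference of NOD1 minus control in relative level (log2, horizontal axis) for the SMAD mediators, SMAD partners, SMAD targets, STAT genes, interferon regulatory factors (IRF) and all 319 kept genes, with filled points at an adjusted p under 0.05 (SMAD genes in purple) and a black bar at each median. The called SMAD genes lie left of 0. The median of all kept genes, which include later genes with higher differences, lies at 0.32.

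The plate profile of each SMAD gene, its relative level minus its mean over the 6 plates, was set against those of the other kept genes by the root mean square difference. The nearest to SMAD3b were TLR18, a Toll-like receptor, at 0.13 and MAPK10, a JNK-type kinase, at 0.16. They differed by -1.40 and -1.31 between the groups, beside -1.45 for SMAD3b. The cytokine MIF was near SMAD2 (0.068) and SMAD3a (0.11), and its own difference was -0.58. The kinase gene MAPK6 was next to SMAD2 (0.099), and CASP6, an apoptotic caspase, was nearest to SMAD3a (0.11). SMAD5 was closest to MAPK8, a JNK-type kinase, at 0.016, and to CHUK, an IKK kinase, at 0.041, while NR3C1, the glucocorticoid receptor, at 0.045 and SDF1b, a chemokine assay, at 0.064 were closest to SMAD1. SMAD4 lay nearest to PRKRA and TRAF3, at 0.10 and 0.11. Within the family, SMAD1 and SMAD5 were the nearest pair at 0.13 and SMAD2 and SMAD3a came next at 0.15, whereas SMAD3a and SMAD3b stood 0.44 apart. All profiles share the 6 plates and the same reference genes. The profiles also include the difference between the groups. A neighbour with a group difference close to that of its SMAD gene therefore follows from the choice and is not a separate result.

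Of the listed blood and endothelial markers, the plate held 4, and of these 2 were higher, 1 was lower and 1 did not pass. Over the kept genes, 37% were called higher and 15.4% lower. The cells that made these transcripts in the whole embryo were not identified. All 4 were detected on each plate. SPI1 and CEBPB, both myeloid transcription factors, were higher by 0.81 and 1.48, the macrophage receptor CSF1R was lower (-1.17), and the leukocyte gene PTPRC differed by -0.011 (limma adjusted p = 0.0146, 0.00178, 0.00271 and 0.952). Their summed level, in percent of the reference level, ranged from 1.17% to 1.56% in NOD1 plates and from 0.954% to 1.05% in control plates. The sum takes the assays as equally efficient, which was not measured, and it does not show that CSF1R went the other way. Their part in the SMAD differences was not tested. The list does not hold every blood cell receptor on the plate. Among those outside it, EPOR and CSF2RB were called lower, at -1.01 and -1.84 (limma adjusted p = 0.00411 and 0.0409). CSF2RB lay near the ceiling, with a mean Ct of 34.2 in NOD1 plates. IL7R, also outside the list, was called higher, at 2.35 (limma adjusted p = 0.0111).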

How the data were processed

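Per the file headers, SDS 2.3 read each plate at a manual threshold of 0.2 with an automatic baseline, and the authors deposited raw Ct values, a score on a log2-like scale in which lower means more template. The authors' deposited table holds a log2-like delta Ct per group, its ratio or fold, a p-value and a signed fold score, per the file headers. Its delta Ct was rebuilt from the plates for all 6 SMAD genes to within 1e-06 cycles.

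Ct values over 35 or undetermined were set to 35. Relative levels, the filter and the test (limma 3.58.1, lmFit and eBayes, R 4.3.3, two-sided, threshold 0.05) were fitted over all kept genes and 6 plates. The fit was tested on simulated data with independent normal noise for each gene. The simulation held no plate, reference-gene or run-day error shared between genes, so it does not cover such errors. Pair differences used exact permutation of plates. The SMAD genes and lists were chosen with earlier results of these data known; besides the SMAD and check genes, up to 4 genes per list with the largest differences and the 2 nearest profiles per SMAD gene were to be named, and TAK1, JUN, SP1, STAT3 and other exceptions were named after their values were seen. A gene that the rule selects is not reported here. Alternatives covered scaling, ceiling, filter, test, blocks and single plates. The sources used here do not say whether replicates were separate injections, so p-values measure the spread between plates, and 3 plates per group limit the precision.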

Additional observations from a re-analysis of the deposited data

How the results depend on the processing

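Of 24 alternatives, SMAD3b was called lower in 24, SMAD3a in 23 and SMAD2 in 19. The 24 include ceilings and filters that left each SMAD difference unchanged. They also include a run-day block that cannot separate run day from group. The addition of 18S rRNA was chosen after seeing the data, and with it SMAD3a was at -0.099 (adjusted p = 0.429), SMAD2 at -0.14 (0.377), SMAD1 at 0.50 and SMAD5 at 0.60, giving 1 SMAD gene lower and 2 higher, and 18 lower and 195 higher over all genes. With GAPDH alone SMAD2 was at -0.42, and 26 genes were lower. The global mean, global median and raw Ct made all 6 SMAD genes lower, with SMAD1 at -0.60, -0.46 and -0.64, SMAD5 at -0.49, -0.36 and -0.54, and SMAD4 at -0.85, -0.72 and -0.90. Over all genes they gave 140, 113 and 134 lower calls against 49, and the global mean and raw Ct 76 and 71 higher calls against 118. Quantile scaling gave 78 lower and 59 higher calls, and cyclic loess 66 higher. The cause was not tested beyond the shift of the median given above.

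Leaving out 1 plate at a time moved SMAD3b between -1.59 and -1.38, SMAD3a between -0.63 and -0.54, SMAD2 between -0.72 and -0.48, SMAD4 between -0.37 and -0.14, SMAD1 between -0.044 and 0.070 and SMAD5 between 0.035 and 0.25. It left 2 to 3 SMAD genes lower and 0 higher, 31 to 45 genes lower (31 without control replicate 1, 32 without control replicate 3) and 96 to 113 higher, SMAD3b minus SMAD3a between -0.96 and -0.81, the branch contrast between -1.01 and -0.86, and the reference shift between 0.588 and 0.724 cycles. Same-numbered plates correlated at 0.11, 0.031 and -0.022 in their deviations. With 3 plates per group, these values cannot show whether same-numbered plates were prepared together. The replicate block kept 3 SMAD genes lower (SMAD2 limma adjusted p = 0.0481), with 40 lower and 111 higher genes. Run day as a random block (correlation -0.33) gave 71 lower and 141 higher genes and the same SMAD calls. No day held both groups, so this block cannot take run day out of the differences. With its negative correlation the p-values were smaller (SMAD3b limma adjusted p = 1.58e-04 against 0.00150). The other ceilings and filters changed no SMAD call, but they could not have moved a SMAD difference. Every SMAD Ct lay under the strictest filter of 30 cycles. The other tests changed no SMAD call.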
